A study of Homo sapiens with 42 samples.

Results

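The short arm of chromosome 19 carries, in band 19p13.2, a dense group of zinc finger (ZNF) genes. The 39 listed ZNF genes of this band were taken as members by their symbols and position. Of these, 33 had a microarray probe set that carries their symbol alone, out of 18417 genes measured this way, and each of the 33 had 1 such probe set. The other members were ZNF20, ZNF177, ZNF490, ZNF559 and ZNF625, 5 genes that were covered only by probe sets that also carry a second symbol, so that no level was assigned to them, and ZNF878, which was not listed among the annotated probe sets. In the order of the human reference annotation, the members form a telomeric block from ZNF557 to ZNF846 (14 listed, 12 measured) and a centromeric block from ZNF653 to ZNF791 (25 listed, 21 measured). Between the blocks lies a stretch of other genes.

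RNA was measured in HL-60 cells, an established human acute myeloid leukemia line with amplified MYC, on 42 arrays in 14 groups of 3. The inhibitor experiment (18 arrays) comprised cells that were untreated or received 10 µM GSK-343, an inhibitor of the H3K27 methyltransferase EZH2, or 2.5 µM HKMTI-1-005, which inhibits both EZH2 and the H3K9 methyltransferases EHMT2 and EHMT1, each without and with 0.1 µM all-trans retinoic acid (ATRA) for 3 days. The knockdown (KD) experiment (24 arrays) comprised untransduced cells (labelled wild type) and cells with a non-targeting (NT) short hairpin RNA. It also held cells with EZH2 hairpin shEZH2 #1 or shEZH2 #2. Each kind was taken without and with 0.1 µM ATRA for 3 days. Hairpins were delivered by lentivirus and the transduced cells were selected with puromycin, so each such group is a selected pool of the same line rather than a clone. The study describes the arrays as biological triplicates. The 2 inhibitors were not given at the same dose, and each was used at 1 dose and 1 time.

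Most ZNF genes of this kind encode a KRAB domain followed by an array of C2H2 zinc fingers. The fingers bind DNA, often within transposable elements, and the KRAB domain recruits the corepressor TRIM28 (KAP1), which brings the H3K9 methyltransferase SETDB1 and HP1 proteins and thereby silences the bound site. KRAB-ZNF genes arose by tandem duplication and sit in clusters, chiefly on chromosome 19, and the genes themselves are known to carry H3K9 methylation over their finger-coding 3′ ends. ZNF653 and ZNF414 of the same band are C2H2 zinc finger genes too.

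All values below are GC-RMA log2 intensities, so a difference of 1 is a 2-fold difference, and levels of different genes, read by different probes, cannot be compared. Close paralogs can share probe sequence, and cross-hybridization among them was not tested. Of the 33 genes, 12 lay among the 40% of genes with the highest mean over all arrays (7367 genes, lowest mean 6.88) and could be called. A gene was called where the adjusted p of limma, taken over all 18417 genes, was 0.05 or less and the fold was at least 1.3. The 12 were ZNF557, ZNF317, ZNF266, ZNF426, ZNF121, ZNF561 and ZNF562 in the telomeric block and ZNF627, ZNF700, ZNF136, ZNF564 and ZNF791 in the centromeric block. Probe sets of the members with the highest signal, averaged over all arrays, were those of ZNF121 (10.03), ZNF791 (8.78) and ZNF317 (8.39), and those with the lowest were of ZNF44 (4.15), ZNF560 (4.25) and ZNF823 (4.31), which says nothing of the relative amounts of these RNAs. The group means of ZNF44 spanned 0.15 from lowest to highest, those of ZNF136 spanned 1.07 and those of ZNF562 spanned 1.12.

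Array medians over all probe sets ran from 5.36 to 5.46 in the inhibitor experiment. In the knockdown experiment they ran from 5.31 to 5.44 in 18 arrays and from 5.47 to 5.56 in the 6 of highest median. These were NT replicates 1 and 2, NT + ATRA replicate 3, untransduced + ATRA replicate 3, shEZH2 #1 replicate 1 and shEZH2 #2 replicate 2. The 6 were taken by rank, and no wide gap in the medians sets them off from the 18. Calls of members that rest on these 6 arrays are given with and without them. Of the genes that mark promyelocytic cells, MPO, the granule peroxidase, lay between 12.51 and 13.35 in all 42 arrays and PRTN3 between 8.68 and 11.02. ELANE ran from 6.35 to 8.74, CTSG from 6.45 to 10.09 and AZU1 from 5.82 to 8.34. The lowest values of these last genes lay under 6.88, the lowest mean past the expression filter. The mean of 11 myeloid markers lay between 8.53 and 9.73. That of 6 lymphoid markers lay between 4.45 and 4.74 and that of 6 erythroid and megakaryocyte markers between 4.86 and 5.15. EZH2 mRNA was lower in all 6 arrays of EZH2 KD than in every NT array, with means of 9.28 and 10.36 (log2 difference −1.08, SE 0.13, adjusted p = 1.72e-05, limma), and without the 6 arrays, with 1 NT array left, the difference was −1.14 (adjusted p = 0.0210).

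HKMTI-1-005 lowered the level of a few genes of both blocks, ZNF136 most of all, and raised none of the 33 past the threshold. ZNF136, a KRAB-ZNF gene of the centromeric block, measured 7.12, 7.12 and 7.37 in the untreated arrays and 6.49, 6.49 and 6.32 with HKMTI-1-005. With ATRA it measured 7.56, 7.64 and 7.30, and with HKMTI-1-005 + ATRA 6.90, 6.70 and 6.57. The groups with and without the inhibitor did not overlap in either setting. The 3 arrays of HKMTI-1-005 alone were the lowest of all 42. ZNF136 fell 1.71-fold without ATRA (log2 difference −0.77, SE 0.12, adjusted p = 0.00143, limma) and 1.71-fold with it (−0.77, SE 0.12, adjusted p = 0.000508). It was the only member called in either comparison, among 13 genes called lower without ATRA (0.176% of the 7367 genes that could be called) and 27 called lower with ATRA (0.366%). In both directions together, 0.217% and 0.76% of those genes were called. Averaged over both settings, the difference was −0.77 with a 95% confidence interval of −0.95 to −0.60 (adjusted p = 1.13e-06, limma), and 6 of 6 arrays with the inhibitor lay below all 6 without it. Both single calls ended when only the compared groups were fitted (adjusted p = 0.0630 without and 0.0652 with ATRA, limma). They also ended with an unpaired t-test (adjusted p = 0.502 and 0.341). The study names that test for its statistics in general, while its array section names no t-test. The averaged call held under every alternative run on it, which did not include the t-test. A smaller share of cells with this RNA and less of it per cell cannot be told apart in such bulk samples. The mean of the myeloid markers was 8.86 to 8.89 in untreated arrays and 8.74 to 8.82 with HKMTI-1-005, and 9.04 to 9.15 and 9.03 to 9.07 in the same order with ATRA, and its part in the result was not tested.

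The difference of ZNF136 with ATRA minus that without ATRA was −0.00031 (95% confidence interval −0.35 to 0.35). No member and no other gene was called for this interaction of HKMTI-1-005 with ATRA (0% of the 7367 genes). The member with the largest interaction was ZNF799, at −0.40 (SE 0.21, unadjusted p = 0.0603, limma), from 4.50 to 4.70 without ATRA and from 4.76 to 4.56 with it. At an unadjusted p under 0.05, 1 other member, below the expression filter, had an interaction below 0, as did 2.18% of all genes. No member had one above 0 at that threshold.

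**Figure D1:**
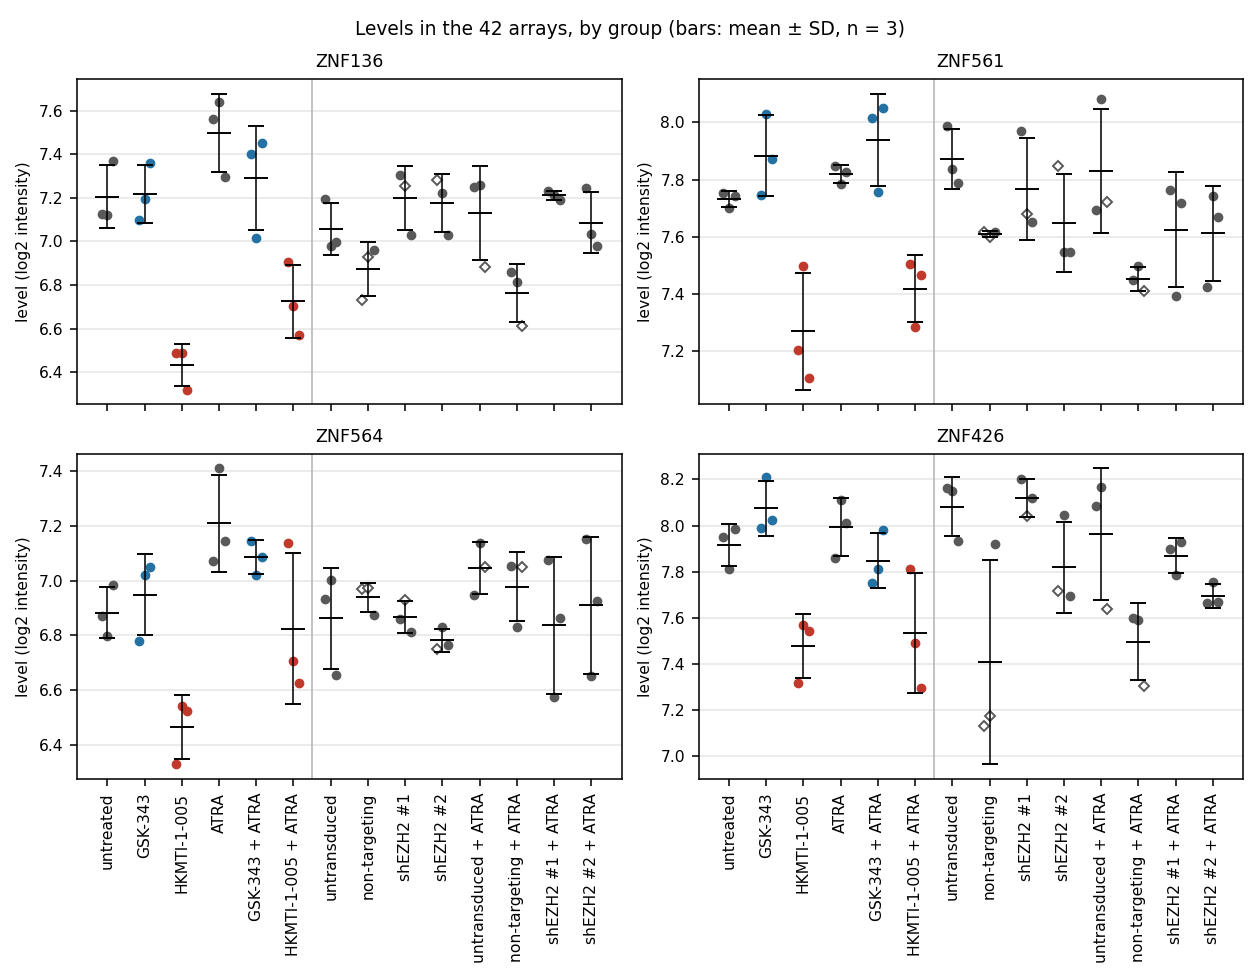
Level (log2 intensity, vertical axis) of ZNF136, ZNF561, ZNF564 and ZNF426 in each of the 42 arrays by group; red points are HKMTI-1-005 groups, blue points GSK-343 groups, open diamonds the 6 knockdown arrays of highest median, and bars the mean ± SD of 3 arrays. The 3 ZNF136 values with HKMTI-1-005 alone lie between 6.32 and 6.49, below every other array, while the GSK-343 values (7.10 to 7.36) lie close to the untreated ones (7.12 to 7.37).

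When the comparisons without and with ATRA were averaged, 4 members were called lower: ZNF136, ZNF561, ZNF564 and ZNF426, where 0.611% of the genes that could be called were called lower and 0.964% were called in either direction. This average uses the same arrays as the comparisons it combines. ZNF561, in the telomeric block, measured 7.75, 7.70 and 7.74 in untreated cells and 7.20, 7.50 and 7.10 with HKMTI-1-005. With ATRA it measured 7.85, 7.79 and 7.83, against 7.51, 7.28 and 7.47 with both agents. All 6 inhibitor arrays lay below all 6 control arrays, and the averaged difference was −0.43 (SE 0.08, adjusted p = 0.00263, limma), a 1.35-fold fall.

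ZNF426, which lies near ZNF561 in the same block, measured 7.95, 7.81 and 7.99 in untreated cells against 7.32, 7.57 and 7.54 with HKMTI-1-005. With ATRA the values were 7.86, 8.11 and 8.01 against 7.81, 7.49 and 7.29. Again no inhibitor array reached a control array, although the highest of them and the lowest control array both rounded to 7.81. The averaged difference was −0.45 (SE 0.11, adjusted p = 0.0266, limma). ZNF564, at the centromeric end, measured 6.87, 6.80 and 6.98 in untreated cells and 6.33, 6.54 and 6.52 with HKMTI-1-005, against 7.07, 7.41 and 7.14 with ATRA and 7.14, 6.71 and 6.63 with both agents. In 5 of 6 inhibitor arrays it lay below all controls, and replicate 1 with both agents lay within their range. Its averaged difference was −0.40 (SE 0.09, adjusted p = 0.015, limma). The calls of both ended when arrays were centred on their medians (adjusted p = 0.184 and 0.0608, limma) and when any 1 of several arrays was left out. For ZNF564 these were HKMTI-1-005 replicate 1, ATRA replicate 2, HKMTI-1-005 + ATRA replicates 2 and 3 and untreated replicate 3 (adjusted p up to 0.0621). For ZNF426 they were the same arrays, untreated replicate 1 and ATRA replicate 3 (adjusted p up to 0.0872). ZNF136 and ZNF561 remained called under each of these.

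The promoters of these 4 genes are printed because the genes were called lower together and show the different makeup of the blocks. The RefSeq promoter table held windows for 37 of the 39 listed genes (assembly GRCh38.p14), and the 250 bases before the annotated start are shown 5′ to 3′ on the strand of the gene. The windows are chr19:12162846-12163095 (plus strand) for ZNF136, chr19:12551483-12551732 (minus strand) for ZNF564, chr19:9621233-9621482 (minus strand) for ZNF561 and chr19:9538646-9538895 (minus strand) for ZNF426. Capitals mark matches on either strand to the motifs searched. These were the GC box with the letters GGGCGG, the CCAAT box, the long CCAAT box with the letters CCAATCAGG, which contains the CCAAT box, and the TATA box with the letters TATAAA. The other three were an ETS motif with the letters CCGGAAG, the E box with the letters CACGTG and the cyclic AMP response element (CRE) with the letters TGACGTCA.
ZNF136: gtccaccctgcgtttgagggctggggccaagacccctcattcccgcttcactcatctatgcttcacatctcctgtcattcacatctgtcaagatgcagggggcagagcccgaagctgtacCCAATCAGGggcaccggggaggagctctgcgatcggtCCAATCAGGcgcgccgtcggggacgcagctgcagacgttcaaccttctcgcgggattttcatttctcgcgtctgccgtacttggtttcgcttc
ZNF564: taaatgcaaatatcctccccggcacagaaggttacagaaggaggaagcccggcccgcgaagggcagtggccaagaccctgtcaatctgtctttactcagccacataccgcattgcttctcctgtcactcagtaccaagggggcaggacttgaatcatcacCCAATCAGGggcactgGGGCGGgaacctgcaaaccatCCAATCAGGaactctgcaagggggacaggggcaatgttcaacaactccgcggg
ZNF561: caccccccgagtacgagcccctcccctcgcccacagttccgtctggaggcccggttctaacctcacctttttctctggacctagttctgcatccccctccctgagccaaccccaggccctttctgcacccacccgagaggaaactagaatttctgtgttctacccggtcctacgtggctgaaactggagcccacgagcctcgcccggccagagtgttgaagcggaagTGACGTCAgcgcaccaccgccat
ZNF426: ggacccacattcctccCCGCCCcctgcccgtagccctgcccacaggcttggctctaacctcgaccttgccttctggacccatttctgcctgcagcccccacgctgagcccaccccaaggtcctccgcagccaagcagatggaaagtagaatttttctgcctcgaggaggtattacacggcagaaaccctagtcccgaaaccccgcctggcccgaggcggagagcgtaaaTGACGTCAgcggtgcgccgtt

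ZNF136 and ZNF564, of the centromeric block, each held 2 copies of the long CCAAT box whose first bases lay 37 bases apart in both genes. ZNF561 and ZNF426, of the telomeric block, each held a single CRE, whose last base lay 16 and 14 bases before the start, and their windows were 67.2% identical in a global alignment, against 51.9% to 54.2% for the other 5 pairs. Over all members, the CRE occurred in 4 of 37 windows, those of ZNF266, ZNF426, ZNF121 and ZNF561, which all lie in the telomeric block. It occurred in 9 of 393 windows of other ZNF genes (2.29%) and in 1.65% of all 35116 windows. The long CCAAT box occurred in 14 of 24 centromeric windows and in 0 of 13 telomeric ones, in 12.5% of windows of other ZNF genes and in 1.09% of all windows. The CCAAT box itself occurred in 22 of 24 centromeric and 4 of 13 telomeric windows (44.3% of other ZNF genes, 32% of all windows). The windows of ZNF490 and ZNF791, on opposite strands, overlap, and their long CCAAT box is the same stretch of bases, which counts in both. Members and other ZNF genes entered with a single window each, whereas a gene could hold several of the 35116 windows. The GC box was in 31 of the 37 windows, or 83.8% (59% of other ZNF genes, 42.6% of all windows). The ETS motif was in 5, or 13.5% (31.3% of other ZNF genes, 8.52% of all windows). The TATA box and E box were in 0 (3.31% and 4.58% of other ZNF genes, 10.7% and 6.34% of all windows). These are matches of letters in a window and do not show that a factor binds there. The motifs were chosen as common promoter elements, except the long CCAAT box, which was added after the windows had been read. The averaged differences of the genes with a CRE were −0.39 for ZNF266, −0.45 for ZNF426, −0.26 for ZNF121 and −0.43 for ZNF561. Only ZNF426 and ZNF561 among them were called. All 12 members past the expression filter had averaged differences below 0, with a median of −0.38. ZNF136 (−0.77) and ZNF562 (−0.69), whose windows hold no CRE, fell further than the genes with one. A link between a motif and the differences was not tested.

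Further members had lower means with HKMTI-1-005 without passing every threshold. ZNF562, the neighbor of ZNF561, measured 7.98, 7.80 and 7.91 in untreated cells against 7.01, 7.49 and 7.10 with HKMTI-1-005. With ATRA the values were 7.98, 7.94 and 7.96 against 7.18, 7.33 and 7.33. The groups did not overlap in either setting, but ZNF562 had the largest spread within groups of the 33 genes (SD 0.36 over all groups), and the averaged difference of −0.69 (SE 0.20) had an adjusted p of 0.0826 (limma). ZNF699, a telomeric gene below the expression filter, measured 5.39, 5.56 and 5.41 untreated, 5.06, 5.29 and 5.13 with HKMTI-1-005, 5.45, 5.50 and 5.42 with ATRA and 5.34, 4.87 and 5.31 with both. Its 6 inhibitor arrays lay below all 6 controls, and its averaged difference of −0.29 (SE 0.07, adjusted p = 0.0244, limma) was under the fold threshold.

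Over the 33 genes, 11 were lower and 0 higher with HKMTI-1-005 alone at an unadjusted p under 0.05, where 2.79% of all 18417 genes were lower by that rule. With ATRA 10 were lower and 0 higher, where the share over all genes was 5.42%, and averaged over both settings 13 were lower and 0 higher, where it was 5.7%. In 9 genes without ATRA and in 10 with ATRA, every array with the inhibitor lay below every control array, where 6.53% and 9.11% of all genes did so. The median log2 difference of the 33 was −0.08 without ATRA and −0.17 with it, and that of all genes −0.00093 and −0.00081 in the same order. Among the 449 other ZNF genes measured, 95 were lower and 5 higher at an unadjusted p under 0.05 without ATRA, with a median of −0.08, and 104 were lower and 10 higher with ATRA, with a median of −0.09. Averaged over both settings, 31 of the 449 were called lower and 0 higher, where 156 of them could be called. Of the 33 members, 12 could be called and 4 were called lower. Every array with the inhibitor lay below every control array in 26.1% of the 449 without ATRA and 28.5% with it. The shares of the 33 were 27.3% and 30.3%. Lower levels were thus also measured for ZNF genes outside the band. Of the 99 other protein-coding genes that lie between ZNF557 and ZNF791, 43 could be called. In the averaged comparison 1 of them was called higher and 0 lower, and the median difference of the 99 was 0.01.

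**Figure D2:**
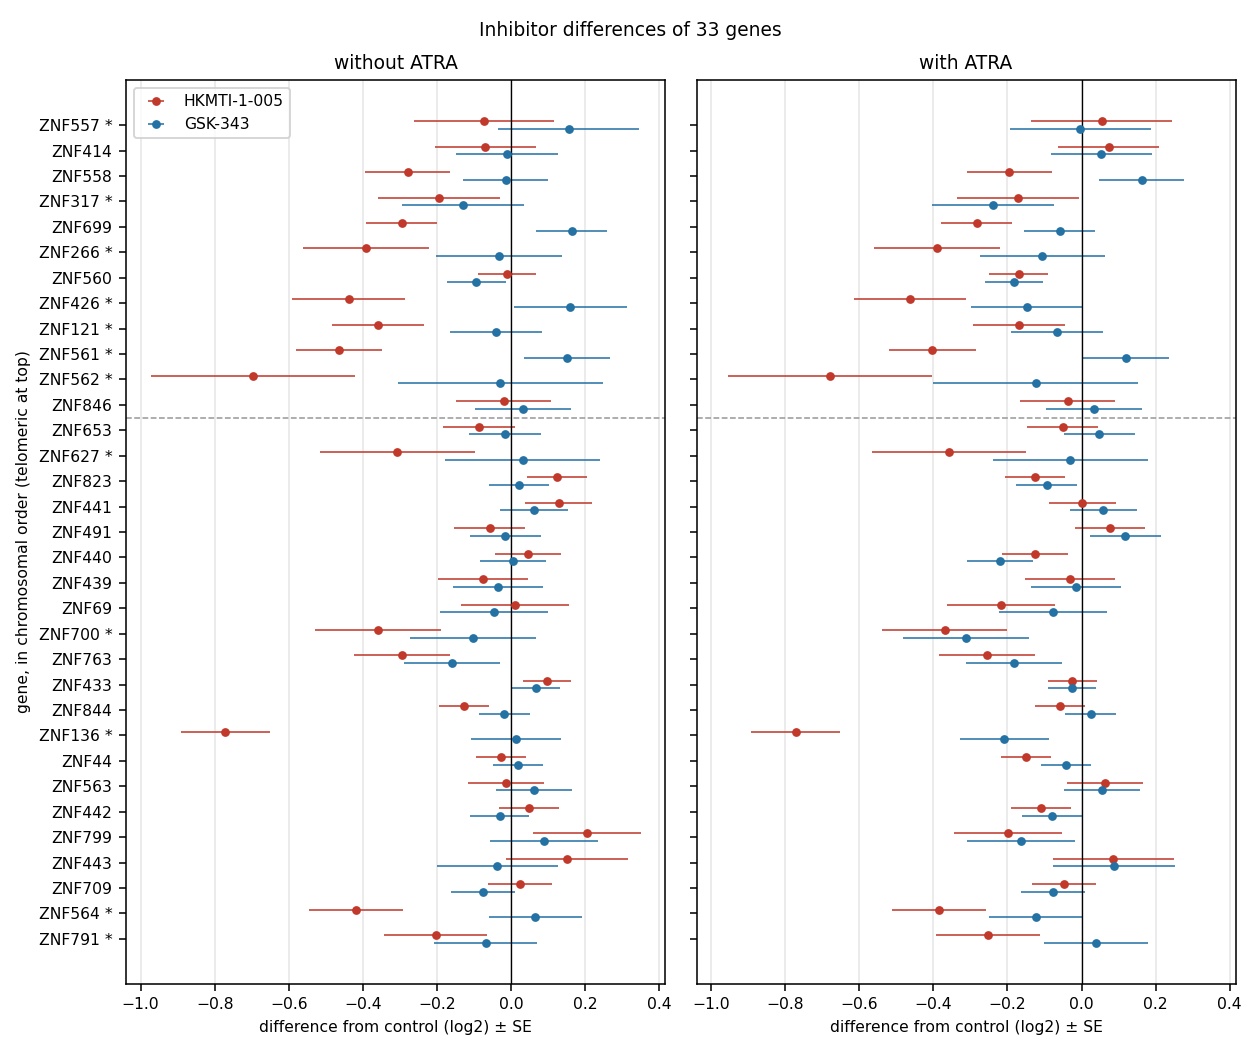
Difference of group means (log2, horizontal axis) ± SE from the control without inhibitor for the 33 genes in chromosomal order, without ATRA (left) and with ATRA (right); red is HKMTI-1-005, blue GSK-343, asterisks mark the 12 genes past the expression filter and the dashed line separates the telomeric from the centromeric block. The red points of ZNF136 lie at −0.77 in both panels and those of ZNF562 at −0.70 and −0.68, while no blue point lies below −0.31.

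By block, 7 of 12 telomeric and 5 of 21 centromeric genes passed the expression filter. With HKMTI-1-005 alone, all 12 measured telomeric genes had a mean below that of untreated cells, with a median difference of −0.29, and 12 of 21 centromeric genes did, with a median of −0.03. With ATRA the numbers were 10 of 12 (median −0.18) and 17 of 21 (median −0.13). The same genes were also split by the expression filter. With HKMTI-1-005 alone, 12 of 12 genes past it had a lower mean (median −0.38), as did 12 of 21 under it (median −0.01). With ATRA the numbers were 11 of 12 (median −0.38) and 16 of 21 (median −0.06). Of the other ZNF genes past the filter, 73.1% had a lower mean without ATRA (median −0.17) and 69.2% with it (median −0.12). Of all genes past it, 43.6% and 36.3% did (medians 0.02 and 0.06). Block and expression level were not separated, and no test was made between the blocks. Of the centromeric genes between ZNF823 and ZNF709 in order, ZNF136 and ZNF700 alone passed the expression filter, and most of the rest stayed near the lower end of the scale in all groups. The largest rises with HKMTI-1-005 were those of ZNF799 without ATRA (0.20, SE 0.15) and ZNF443 with ATRA (0.09, SE 0.16), and neither passed an unadjusted p of 0.05.

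**Figure D3:**
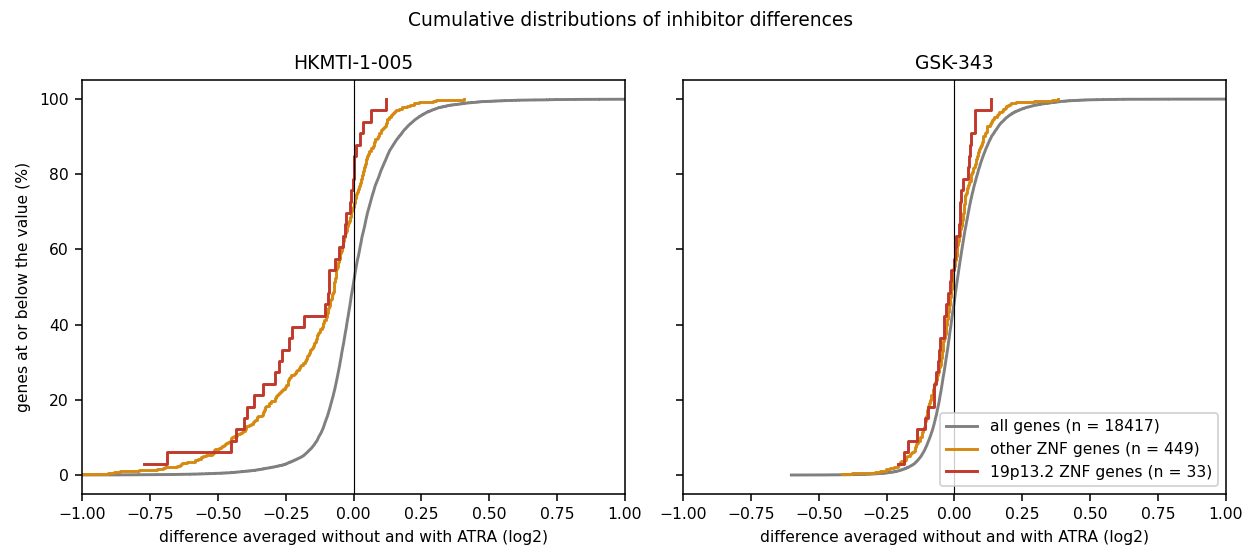
Cumulative share of genes (%, vertical axis) at or below each difference (log2, averaged without and with ATRA, horizontal axis, drawn from −1 to 1) for HKMTI-1-005 (left) and GSK-343 (right); gray is all 18417 genes, orange the 449 other ZNF genes and red the 33 ZNF genes of 19p13.2. For HKMTI-1-005 the red and orange curves lie to the left of the gray one (medians −0.09 and −0.07), and for GSK-343 the 3 curves lie near each other (medians −0.02 and −0.01 for the ZNF genes).

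With GSK-343, the EZH2 inhibitor, no member was called, either alone, with ATRA or averaged over both. Over all genes that could be called, 0.0136% were called alone, 0.0136% with ATRA and 0.122% in the averaged comparison. ZNF136 measured 7.10, 7.19 and 7.36 with GSK-343, within the range of the untreated arrays in 2 of 3 cases, and the difference was 0.01 (95% confidence interval −0.23 to 0.26). With GSK-343 + ATRA it measured 7.40, 7.02 and 7.45, a difference from ATRA of −0.21 (−0.45 to 0.04). At an unadjusted p under 0.05, 0 members were lower with GSK-343 alone (1.36% of all genes), 2 with ATRA (1.41%), namely ZNF440 and ZNF560, and 1 in the averaged comparison (1.92%). None was higher. Among the 33, the largest differences with GSK-343 alone were those of ZNF699 (0.16, SE 0.10) and ZNF763 (−0.16, SE 0.13), and with ATRA those of ZNF558 (0.16, SE 0.11) and ZNF700 (−0.31, SE 0.17). In the averaged comparison they were those of ZNF561 (0.13) and ZNF700 (−0.21).

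The arrays of both inhibitors were also set against each other, with the reservation that the doses were 2.5 µM HKMTI-1-005 and 10 µM GSK-343, so compound and dose cannot be told apart. Without ATRA, ZNF136 was 1.72-fold lower with HKMTI-1-005 (log2 difference −0.78, SE 0.12, adjusted p = 0.000662, limma). ZNF561, at 7.75, 8.03 and 7.87 with GSK-343, was 1.53-fold lower with HKMTI-1-005 (−0.61, SE 0.12, adjusted p = 0.00884). These were the 2 members called, where 0.394% of genes were. ZNF699, below the filter, measured 5.48, 5.74 and 5.64 with GSK-343 and differed by −0.46 (SE 0.10, adjusted p = 0.020). With ATRA in both arms the same 2 members were called, where 1.07% of genes were: ZNF136 at −0.56 (SE 0.12, adjusted p = 0.0126) and ZNF561 at −0.52 (SE 0.12, adjusted p = 0.0166). Leaving out HKMTI-1-005 replicate 1 or 3 or GSK-343 replicate 2 ended the call of ZNF561 without ATRA (adjusted p up to 0.123). With ATRA, its call ended without HKMTI-1-005 + ATRA replicate 2 or GSK-343 + ATRA replicate 1 or 3 (up to 0.170), and that of ZNF136 without any 1 of these and without HKMTI-1-005 + ATRA replicate 3 (up to 0.117). Centring on array medians also ended both calls with ATRA. For the other members, the widest gap without ATRA was that of ZNF562 (−0.67, SE 0.28) and the largest rise that of ZNF443 (0.19, SE 0.16). With ATRA they were ZNF562 (−0.55) and ZNF440 (0.09). These contrasts share the HKMTI-1-005 arrays with those against untreated cells and ATRA.

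ATRA drives these cells towards granulocytes. Of the 12 members that could be called, 0 were called with ATRA against untreated cells, where 13.1% of the genes that could be called were. None was called in untransduced cells of the knockdown experiment either (2.13% of genes), nor over the average of all 7 pairs of groups with and without ATRA (11.5%). In that average, which rests on 21 arrays against 21, 4 members had an adjusted p of 0.05 or less but folds under 1.3. The share of all genes under that adjusted p, whatever their fold, was not counted, so these 4 are given as a description. ZNF627 was higher with ATRA by 0.32 (SE 0.08, adjusted p = 0.00232, limma), ZNF564 by 0.16 (SE 0.05, adjusted p = 0.00989) and ZNF791 by 0.15 (SE 0.05, adjusted p = 0.0322). ZNF121 was lower by 0.14 on the log2 scale (difference −0.14, SE 0.05, adjusted p = 0.0278). Without the 6 arrays of high median, ZNF791 no longer had an adjusted p under the threshold (0.08, adjusted p = 0.311), and the differences were 0.20 for ZNF627 (adjusted p = 0.0222), 0.17 for ZNF564 (adjusted p = 0.0314) and −0.15 for ZNF121 (adjusted p = 0.0190). The levels with and without ATRA overlapped in all 4: only 4 of 21 ATRA arrays lay above all controls for ZNF627 and 12 of 21 for ZNF564.

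In the inhibitor experiment, the largest differences with ATRA alone were those of ZNF564 (0.33) and ZNF121 (−0.29). ZNF564 measured 6.87, 6.80 and 6.98 without and 7.07, 7.41 and 7.14 with ATRA. ZNF121 measured 10.22, 10.47 and 10.15 without and 9.82, 10.04 and 10.11 with it. In untransduced cells they were those of ZNF799 (0.24) and ZNF558 (−0.59). ZNF558, a gene below the expression filter, measured 5.10, 5.12 and 4.96 without ATRA and 4.47, 4.41 and 4.54 with it (SE 0.11, adjusted p = 0.00276, limma, and −0.62 with adjusted p = 0.00359 without the array of high median among them). The untreated arrays of the inhibitor experiment had ZNF558 at 4.54, 4.42 and 4.65 and those with ATRA at 4.59, 4.63 and 4.48, so the higher levels were those of the untransduced cells without ATRA, and the highest value in any other group was 4.84.

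**Figure D4:**
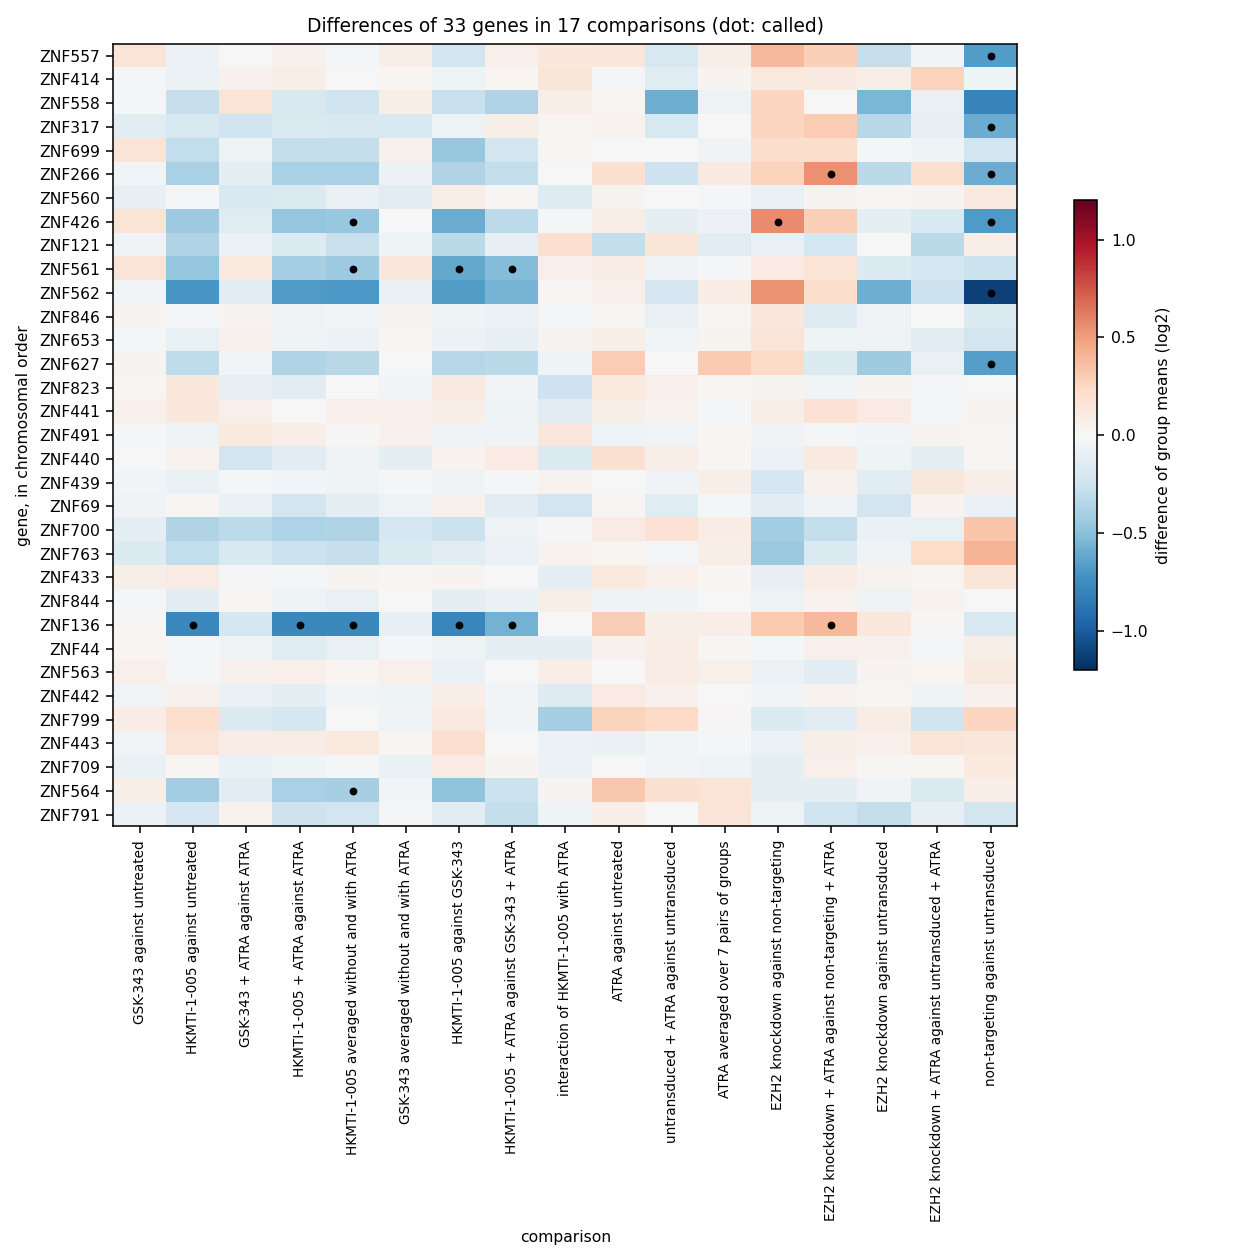
Differences of group means (log2, color scale from −1.2 to 1.2) of the 33 genes, in chromosomal order down the vertical axis, in the 17 comparisons along the horizontal axis; a dot marks a called gene. Dots stand in the HKMTI-1-005 columns for ZNF136, ZNF561, ZNF426 and ZNF564, in the knockdown columns for ZNF426, ZNF266 and ZNF136, and in the column of NT against untransduced cells for 6 genes.

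Lowering EZH2 mRNA with hairpins was not accompanied by a call for any member when untransduced cells were the control, either without ATRA (0.407% of genes called) or with it (3.28%). Against the NT hairpin, 1 member was called without ATRA, where 6.12% of genes were called, and 2 with ATRA, where 5.38% were. ZNF426 measured 7.13, 7.17 and 7.92 in NT cells, 8.04, 8.20 and 8.12 with shEZH2 #1 and 8.05, 7.72 and 7.70 with shEZH2 #2. The averaged hairpins were higher by 0.56 (SE 0.13, adjusted p = 0.0139, limma), but NT replicate 3 lay among the knockdown arrays, and NT replicates 1 and 2 belong to the 6 arrays of high median. Without NT replicate 1 or without NT replicate 2 no member was called (ZNF426 at 0.42 and 0.45), and without NT replicate 3 there were 6 called. Without those 6 arrays the difference was 0.10 (adjusted p = 0.976), with 1 NT array left that is assumed to vary like the other groups, and with the array median as a covariate it was 0.33 (adjusted p = 0.0817). Against untransduced cells, at 8.16, 8.15 and 7.93, ZNF426 was not called. ZNF763, below the filter, differed from NT by −0.45 (SE 0.11, adjusted p = 0.0207), with 5.19, 5.14 and 5.10 in NT cells, 4.89, 5.08 and 4.82 with shEZH2 #1 and 4.49, 4.46 and 4.42 with shEZH2 #2, so that all 6 knockdown arrays lay below the NT arrays and those of shEZH2 #2 were the lowest. Without the 6 arrays of high median its difference was −0.40 (adjusted p = 0.739).

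With ATRA, ZNF266 measured 8.07, 8.12 and 7.63 in NT cells, 8.65, 8.57 and 8.47 with shEZH2 #1 and 8.62, 8.23 and 8.40 with shEZH2 #2. All 6 knockdown arrays lay above the NT arrays (difference 0.55, SE 0.15, adjusted p = 0.030, limma). ZNF136 measured 6.86, 6.82 and 6.61 in NT cells, 7.21, 7.23 and 7.19 with shEZH2 #1 and 7.03, 7.24 and 6.98 with shEZH2 #2, again without overlap (0.39, SE 0.10, adjusted p = 0.0316). Without the 6 arrays of high median the differences were 0.39 (adjusted p = 0.0314) for ZNF266 and 0.31 (adjusted p = 0.158) for ZNF136. Without NT + ATRA replicate 3 alone, 1 of those arrays, neither was called (0.39, adjusted p = 0.312, and 0.31, adjusted p = 0.256), nor was either without NT + ATRA replicate 1 or without replicate 1 of either EZH2 hairpin with ATRA. ZNF136 was also lost without replicate 2 of either hairpin. In untransduced cells with ATRA, ZNF266 measured 8.51, 8.46 and 7.92 and ZNF136 7.25, 7.26 and 6.88, with replicate 3, an array of high median, below the knockdown arrays for both genes. The largest fall with EZH2 KD + ATRA against NT + ATRA was that of ZNF700 (−0.29). Against untransduced cells, the largest falls were those of ZNF562 without ATRA (−0.58) and ZNF121 with ATRA (−0.33), and the largest rises those of ZNF136 (0.13) and ZNF414 (0.28). ZNF558 had a difference of −0.55 without ATRA (SE 0.10, adjusted p = 0.00486, and −0.49 with adjusted p = 0.0253 without the 6 arrays). Without those arrays ZNF562 was called lower with ATRA (−0.49, adjusted p = 0.0386).

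The NT hairpin itself was set against untransduced cells as a control. In NT cells 6 members were lower, ZNF562, ZNF426, ZNF557, ZNF627, ZNF266 and ZNF317, where 21.6% of genes were called and 18.4% were called lower. ZNF562 measured 8.23, 8.22 and 8.09 in untransduced cells and 6.47, 6.56 and 8.16 in NT cells (difference −1.12, SE 0.28, adjusted p = 0.00986, limma). The NT arrays at 6.47 and 6.56 were those of high median, and replicate 3 lay among the untransduced arrays. ZNF557 showed the same split, with 6.36, 6.38 and 7.19 in NT cells against 7.44, 7.32 and 7.19, as did ZNF627 with 6.76, 6.85 and 7.36 against 7.87, 7.75 and 7.34. The differences of ZNF426, ZNF557, ZNF627, ZNF266 and ZNF317 were between −0.68 and −0.59. Without the 6 arrays of high median no member was called, and the differences of the 6 genes lay between −0.29 and −0.02, with 1 NT array left. With the array median as a covariate no member was called either, nor without NT replicate 1 alone or NT replicate 2 alone. Without untransduced replicate 1 there was 1 member called, and without replicate 2 there were 4. Below the filter, ZNF558 was lower (−0.80) and ZNF763 higher (0.41, adjusted p = 0.0369) in NT cells, and without the 6 arrays their differences were −0.54 (adjusted p = 0.289) and 0.36 (adjusted p = 0.978).

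**Figure D5:**
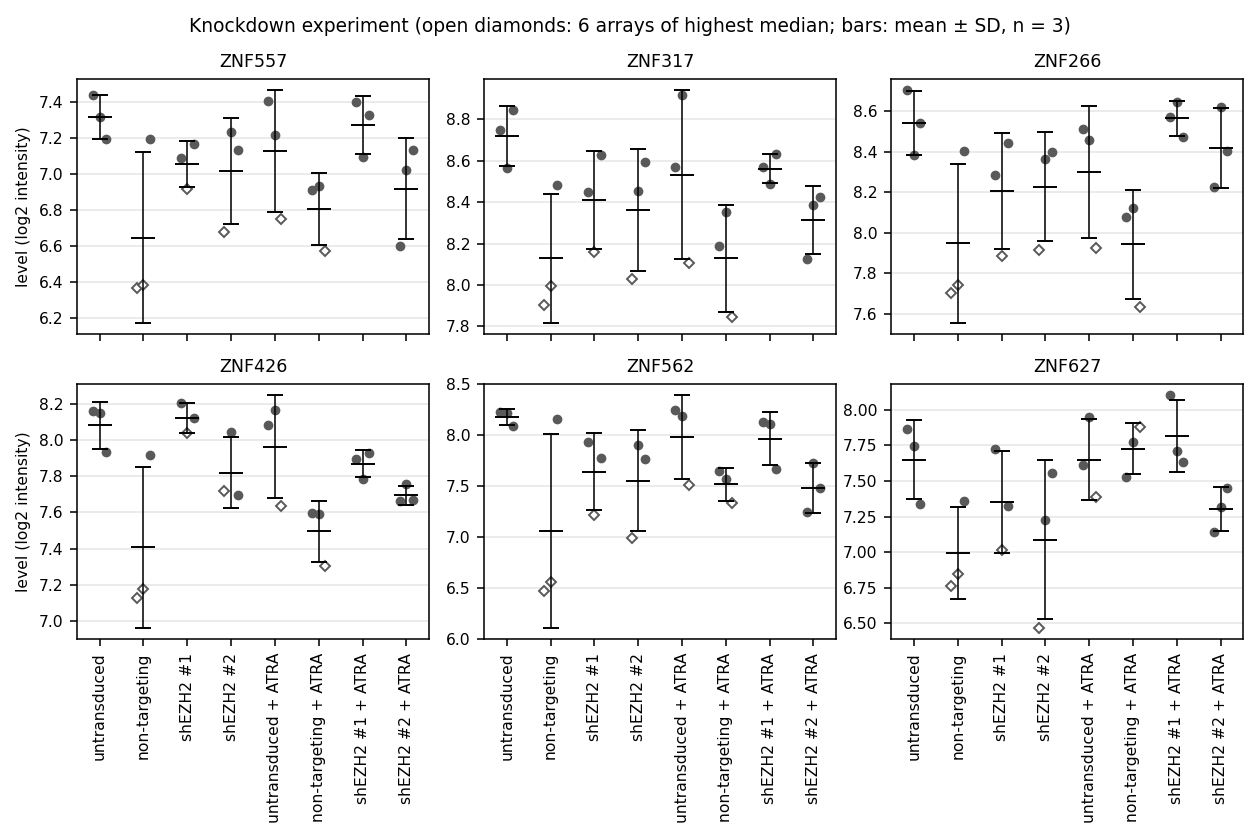
Level (log2 intensity, vertical axis) of ZNF557, ZNF317, ZNF266, ZNF426, ZNF562 and ZNF627 in the 24 arrays of the knockdown experiment by group; points are arrays, open diamonds the 6 arrays of highest median and bars the mean ± SD of 3 arrays. For ZNF562 the diamonds of the NT group lie at 6.47 and 6.56 while its other array lies at 8.16, near the untransduced arrays (8.09 to 8.23).

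The same arrays shaped how the members varied together within groups. After the group means were taken out, the 12 genes past the filter gave 66 pairs over 42 arrays with a median correlation of 0.18. The closest pairs were ZNF266 with ZNF562 (r = 0.81), ZNF317 with ZNF266 (0.78) and ZNF557 with ZNF317 (0.75), all in the telomeric block, and ZNF266 with ZNF700 was the most opposed (−0.60). Without the 6 arrays of high median, and without the NT array then left alone in its group, these became 0.37, 0.26, 0.40 and −0.08 over 35 arrays. Genes next to each other among the 12 had a median r of 0.14 (11 pairs), pairs within a block 0.18 (31 pairs) and pairs across blocks 0.18 (35 pairs). The points share array and scaling, and these correlations are given as a description.

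The proteins that act with KRAB-ZNF factors and write or erase H3K9 methylation formed a list of 33 measured genes. Of these, 29 could be called. With HKMTI-1-005, 0 were called without ATRA, 1 with ATRA and 1 in the averaged comparison, where 0.217%, 0.76% and 0.964% of genes were. With GSK-343, 0 were called in each of these, where 0.0136%, 0.0136% and 0.122% of genes were. ZNF274, a KRAB-ZNF protein known to bring SETDB1 to the 3′ ends of ZNF genes, was lower with HKMTI-1-005 in the averaged comparison (8.24 without and 7.75 with it, difference −0.48, SE 0.11, adjusted p = 0.0121, limma). KDM4A, a demethylase of H3K9 and H3K36, was higher with HKMTI-1-005 + ATRA than with ATRA (8.80 against 8.12, difference 0.68, SE 0.16, adjusted p = 0.0468). With ATRA alone, SETDB2, a relative of SETDB1, and KDM4C, a demethylase, were lower (−0.83 and −0.44), where 13.1% of genes were called. In NT against untransduced cells CBX3, CBX5 and KDM3B were called higher and SUV39H1 and ZNF274 lower, beside the 21.6% of genes called in this comparison, and 0 of these 5 were called without the 6 arrays of high median. Of 11 genes of the PRC2 complex and its partners, 0 were called with either inhibitor, EZH2 was called lower in all 4 comparisons of EZH2 KD, and EZH1 was called higher and MTF2 lower in NT against untransduced cells, where 0 of these 2 were called without the 6 arrays. The calls of EZH2 held without them. EZH2 differed from its control by 0.14 (SE 0.15) with HKMTI-1-005 and by 0.13 (SE 0.15) with GSK-343.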

How the data were processed

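Gene 1.0 ST arrays (Affymetrix, human, 42 in all) had been hybridized with RNA from HL-60 cells. Per the study's methods, GC-RMA and the removal of batch and date effects were done in Partek by the authors before the values were deposited (software versions: not given in the sources used here). As deposited, the series table was read as log2 values, a scale inferred from their range (3.18 to 14.49). No batch term was fitted, since the labels name no batch. Of 33297 probe sets, 19460 carry a single symbol, and 18417 genes were formed from these, each represented by its probe set of highest mean. Arrays labelled WT were taken as untransduced.

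Means of 14 groups were fitted with limma 3.58.1 in R 4.3.3 (28 residual degrees of freedom, 17 comparisons), with Benjamini-Hochberg adjustment over all genes. EZH2 KD is the mean of both hairpins. The procedure was tested on simulated data. Deviations of same-numbered arrays from their group means were correlated in every pair for GSK-343 against untreated (0.43 to 0.47) and HKMTI-1-005 against untreated cells (0.20 to 0.37), so that the data, not the labels, pair these arrays by number. Precision is limited by 3 arrays per group. The members, lists and comparisons were chosen with earlier results of these data known. Named were called members, the members of highest and lowest mean, the largest rise and fall of a comparison and called genes of the corepressor and PRC2 lists, and other members were named after their values were seen. Promoter sequences and gene order come from RefSeq (GRCh38.p14). Alternatives changed the fit, filter, scaling, variance model, test and arrays. Fits without 6 arrays and with the array median as a covariate, and a replicate block in 3 groups, were added after seeing the data.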

Additional observations from a re-analysis of the deposited data

How the results depend on the processing

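The counts of members called with GSK-343 alone, with ATRA and averaged, and for the interaction, were 0 under every alternative that was run. ZNF136 kept its call for HKMTI-1-005 without ATRA, with ATRA and averaged when any 1 array was left out (adjusted p up to 0.0284, 0.0110 and 9.71e-06). It lost the call in the 2 single comparisons when only the compared groups were fitted, or with the unpaired t-test. Among values of single called genes under alternatives, 274 kept their call, 113 lost it and 0 changed direction.

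With 1 fit per experiment, the number of members called was 2 for HKMTI-1-005 alone, 2 with ATRA, 4 for HKMTI-1-005 against GSK-343, 0 for EZH2 KD against NT without and 0 with ATRA, and 1 for NT against untransduced cells. With only the compared groups in the fit, it was 0 for HKMTI-1-005 alone, 1 against GSK-343, 0 against GSK-343 with ATRA, and 0 for EZH2 KD against NT without and with ATRA and for NT against untransduced cells. With the unpaired t-test after Benjamini-Hochberg adjustment it was 0 in all comparisons it was run on. Before adjustment, that test called 6 members with HKMTI-1-005 alone, 4 with ATRA, 5 and 3 against GSK-343, 1 for NT, and 0 in the other comparisons of 2 groups. Over all genes it called 153, 342, 170, 290 and 685 in the same order, and 28 to 1345 in those other comparisons. Without the expression filter the number of members called was 2 for EZH2 KD against NT, 1 against untransduced cells and 1 for ATRA in untransduced cells. Without a fold threshold it was 4 for averaged ATRA. The shares of all genes called by these rules were not counted. Quantile normalization gave 2 for HKMTI-1-005 with ATRA and 1 for ATRA against untreated cells. Centring on array medians gave 2 for averaged HKMTI-1-005, 0 for HKMTI-1-005 against GSK-343 with ATRA, and 2 and 1 for EZH2 KD against NT without and with ATRA. Without the 6 arrays of high median it was 0 and 1 for those comparisons, 1 for EZH2 KD + ATRA against untransduced + ATRA and 0 for NT against untransduced cells. The array median as a covariate gave 5, 4 and 7 for HKMTI-1-005 alone, with ATRA and averaged, 4 against GSK-343, 0 and 1 for EZH2 KD against NT without and with ATRA, and 0 for NT. The cause was not tested for any of these.

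The median difference of the 33 genes moved in knockdown comparisons. For ATRA in untransduced cells it was −0.0541 after quantile normalization, −0.0775 after centring, 0.0245 without the 6 arrays and 0.00952 with the covariate. For EZH2 KD against NT it was 0.00968, 0.0616, 0.0449 and 0.00076 in the same order, and with ATRA it was 0.0929 after centring. For EZH2 KD against untransduced cells it was −0.0810 and −0.104 after quantile normalization and centring. For NT against untransduced cells it was −0.0849, −0.160, −0.0965 and −0.0771 in the order above.

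With each array left out in turn, the number of members called ran from 1 to 2 for HKMTI-1-005 alone, 2 to 4 averaged, 1 to 2 against GSK-343, 0 to 2 against GSK-343 with ATRA, 0 to 6 and 0 to 2 for EZH2 KD against NT without and with ATRA, 0 to 1 for EZH2 KD + ATRA against untransduced + ATRA and 0 to 7 for NT against untransduced cells. The medians ran from −0.0438 to 0.0245 for ATRA in untransduced cells, −0.0429 to 0.0169 and 0.0170 to 0.0843 for EZH2 KD against NT without and with ATRA, −0.0605 to −0.0291 for EZH2 KD against untransduced cells and −0.0413 to 0.0471 for NT.

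Same-numbered arrays of the other comparisons did not deviate together in every pair: over all comparisons, the correlations ran from −0.55 to 0.71 (11 of 21 over 0.1) in the inhibitor experiment and −0.22 to 0.25 (2 of 6) in the knockdown experiment. With the replicate number as a block, 5 members in place of 6 were called for NT against untransduced cells (ZNF627 was lost), and the counts of the other comparisons were the same (4 for averaged HKMTI-1-005). With this block in the untreated, GSK-343 and HKMTI-1-005 arrays only, a pairing chosen after seeing the data, 1 member was called for HKMTI-1-005 alone and 0 for GSK-343 alone. Fits per experiment or of the compared groups alone were not run for ATRA averaged over 7 pairs, nor the t-test for averages and the interaction. The 21 genes below the expression filter could not be called, whatever their adjusted p.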
